A study of Homo sapiens with 8 samples.

Results

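Notch signalling genes were described across 8 human cancer cell lines, with RNA measured by sequencing in 1 library per line. The 10 genes were the receptors NOTCH1, NOTCH2 and NOTCH3, the ligands DLL1, DLL3, DLL4, JAG1 and JAG2, and the target genes HES1 and HEY1. They were chosen by gene symbol from 58202 Ensembl identifiers, and all 10 had a row in every line's table. NOTCH2 had 2 identifiers, of which ENSG00000134250 was used because the other was listed at 0 in all lines.

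The series was built around ERBB4-expressing lines that do or do not respond to ibrutinib, a kinase inhibitor directed at BTK. The lung was represented by H522 (non-small cell lung cancer), H661 (large cell) and H146 (small cell). KLE came from an endometrial adenocarcinoma, HEC59 from an endometrial carcinoma, H716 from a colorectal adenocarcinoma of the cecum, 1321N1 from a glial astrocytoma and COV318 from an ovarian epithelial-serous carcinoma. Cells stayed in culture for 48 hours before RNA was taken, at passages between 3 (KLE) and 15 (COV318), and the labels name no drug in the culture and no genetic change made to a line. Response to the drug is not assigned to lines in the labels, so lines are described singly and by tissue: 3 lung, 2 endometrial and 1 each of the other tissues. Lines of a tissue are different tumours, and each line is a single cell population without the neighbouring stromal and endothelial cells that present ligand in a tissue.

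Notch receptors are membrane proteins that are activated by ligands on a neighbouring cell. Binding allows an ADAM protease and then gamma-secretase to cut the receptor, and the released intracellular domain joins RBPJ and a Mastermind protein in the nucleus to switch on genes of the HES and HEY families. DLL1, DLL4, JAG1 and JAG2 activate receptors on neighbouring cells. DLL3 differs from them in that it stays largely inside the cell and inhibits Notch, and it is known as a surface antigen of small cell lung cancer. HES1 is known to repress proneural genes.

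Values are FPKM, which are fragment counts scaled by transcript length and by the mapped total, so levels of different genes may be set side by side. Of the 10 genes, 8 reached 1 FPKM in at least 2 lines, the minimum for testing, and DLL1 and DLL4 did not. Each line had 12205 to 13300 genes at 1 FPKM or more. The files hold no read totals, and low values gave relative depths from 1 in KLE to 2.67 in 1321N1. The steps of the same low values also divided the lines into 2 sets, one of KLE, H716, H522 and H661 and the other of COV318, H146, HEC59 and 1321N1, and no label names a batch. This was the best of 35 splits into sets of 4. The share of low-value genes at the commonest ratio of 2 lines averaged 20.3% within sets and 10.9% between them. The split was not clean, with 17.8% for KLE and COV318 of different sets and 15.6% for H522 and KLE of the same set. In bulk RNA a lower level can come from fewer expressing cells or from less RNA in each, and these cannot be told apart.

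Markers of the labelled tissues were present in part. Of 6 Mullerian markers, PAX8, SOX17, EMX2 and MUC16 were higher in KLE, HEC59 and COV318 than in all other lines. PAX8, a transcription factor, was at 45.7, 185 and 72.6 FPKM in these 3. MUC16 was at 8.18 in KLE and 2.97 in HEC59 but near 0 in COV318, at 0.111 against 0.0368 in H522. HOXA10 and WT1 of the same list did not keep to KLE, HEC59 and COV318. HOXA10 was highest in H716 at 48.5, and WT1 was at 12.4 in H522 and 0.408 in HEC59. Of 5 intestinal markers, CDH17 was at 137 in H716 and CDX2 at 1.31, but VIL1 was at 8.74 in H146 against 1.07 in H716, LGALS4 was under 1 FPKM in every line and CDX1 was at 0. Of 6 lung lineage markers, SFTPA1 and SFTPA2, surfactant genes, were at 0 in all lines, and NKX2-1 was at 11.2 in H661, while the list summed to 0.0204 in H522 and 0.0275 in H146. In 1321N1 the astrocyte gene GFAP was at 3.10 FPKM while S100B, OLIG1 and AQP4 were at 0, and the summed glial markers, 3.11 there, reached 6.03 in H146. Among neuroendocrine markers CHGA, CHGB, SCG3, SYP and INSM1 were higher in H716 and H146 than in all other lines, and NCAM1, at 84.5 and 52.3 in these, was also at 40.7 in COV318 and 23.5 in 1321N1. The part of such markers in the Notch levels of H146 and H716 was not tested.

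NOTCH2 was the most abundant receptor in 6 of the 8 lines. Its level was 32.0 FPKM in H522, 42.1 in H661, 19.7 in KLE, 4.92 in H716, 29.8 in 1321N1, 1.01 in HEC59 and 32.4 in COV318, and it was listed at 0 in H146. H661, COV318, H522, 1321N1 and KLE formed a high set, H716 and HEC59 were low, and H146 had no listed signal. With 1 library per line no spread within a line exists, so neighbouring levels in these orders cannot be separated by a test.

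The files write NOTCH2 in exponent form with 3 significant digits in every line except KLE, a form used for 0.880% to 1.10% of the values of a file and for no other gene of the 10. NOTCH2 also shares nearly identical sequence with NOTCH2NL, a partial copy, and the sources used here do not give how shared reads were divided. NOTCH2NL was at 27.5 FPKM in H522, 16.9 in H661, 10.4 in KLE, 3.43 in H716, 14.9 in 1321N1, 0.391 in HEC59, 13.2 in COV318 and 0.0272 in H146. Both genes were lowest in H146 and next lowest in HEC59, and the split of reads between them is uncertain.

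NOTCH1 (ENSG00000148400, chromosome 9) was even across most lines. It was at 1.30 FPKM in H522, 1.59 in H661, 2.10 in KLE, 1.76 in H716, 2.11 in 1321N1, 3.82 in HEC59, 1.52 in COV318 and 0.0472 in H146. The other 7 lines thus lay between 1.30 and 3.82, all above H146. AL592301.1, an antisense gene that overlaps NOTCH1, reached at most 0.0772 FPKM in any line.

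NOTCH3 (ENSG00000074181, chromosome 19), itself a Notch target in several tissues, was at 1.66 FPKM in H522, 1.33 in H661, 0.903 in KLE, 0.00483 in H716, 0.0748 in 1321N1, 3.50 in HEC59, 3.86 in COV318 and 0.248 in H146. COV318 and HEC59 were highest, and H716 and 1321N1 were close to 0. NOTCH4 (ENSG00000204301), an endothelial receptor outside the 10 genes, was at 1.04 FPKM in H522, 0.951 in H146 and 0.0798 to 0.426 in the other lines.

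Summed over NOTCH1, NOTCH2 and NOTCH3, receptor levels were 35.0 FPKM in H522, 45.0 in H661, 22.7 in KLE, 6.68 in H716, 32.0 in 1321N1, 8.33 in HEC59, 37.8 in COV318 and 0.295 in H146. NOTCH2 supplied 73.6% to 93.5% of this sum in 6 lines. HEC59 divided it differently, with 45.8% from NOTCH1, 42.0% from NOTCH3 and 12.1% from NOTCH2. In H146 no receptor of the 3 reached 1 FPKM, and NOTCH3 made up 84.0% of what was left.

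**Figure D1:**
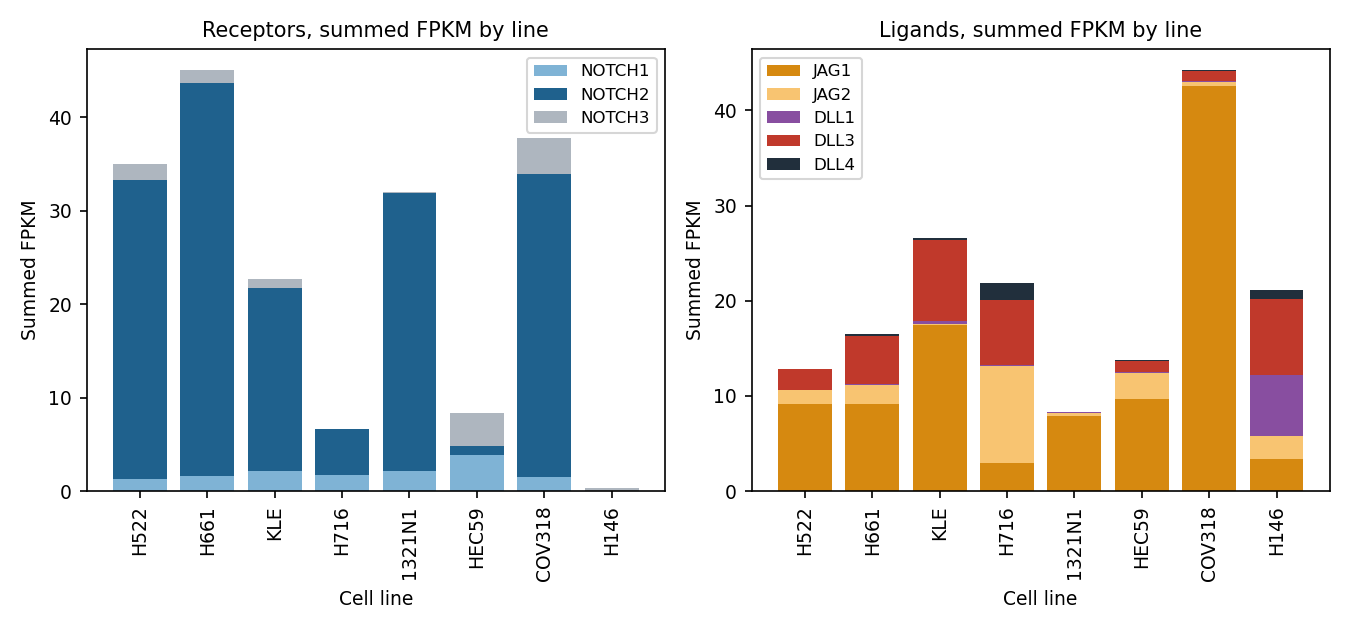
Stacked bars of summed FPKM per cell line (1 library each) for the receptors on the left and the ligands on the right, coloured by gene. The receptor bar of H146 is nearly flat at 0.295 while its ligand bar reaches 21.1, and JAG1 fills most of the ligand bar of COV318.

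JAG1 (ENSG00000101384, chromosome 20), an activating ligand, was the only gene of the 10 at 1 FPKM or more in all 8 lines. Its levels were 9.12 FPKM in H522, 9.14 in H661, 17.4 in KLE, 2.98 in H716, 7.90 in 1321N1, 9.67 in HEC59, 42.6 in COV318 and 3.32 in H146. COV318 was highest and KLE next, while H716 and H146 lay lowest. H522, H661 and HEC59 were within 1 FPKM of each other.

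JAG2 (ENSG00000184916, chromosome 14), the other Jagged ligand, was at 1.47 FPKM in H522, 2.01 in H661, 0.144 in KLE, 10.1 in H716, 0.332 in 1321N1, 2.77 in HEC59, 0.456 in COV318 and 2.5 in H146. H716 was highest, and KLE, 1321N1 and COV318 were under 1 FPKM. AL512356.1, which overlaps JAG2 on the same strand, reached 1.18 FPKM at most, also in H716.

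DLL3 (ENSG00000090932, chromosome 19), the inhibitory ligand, was at 2.17 FPKM in H522, 5.03 in H661, 8.55 in KLE, 6.84 in H716, 1.20 in HEC59, 1.06 in COV318 and 7.98 in H146, and it was listed at 0 in 1321N1. KLE, H146, H716 and H661 formed the upper levels, and HEC59 and COV318 stood just over 1 FPKM. The small cell line H146 was therefore not listed highest: the endometrial line KLE was listed above it, at 8.55 against 7.98. With 1 library each, the order of these lines cannot be settled. By the sets of lines that the low values gave, DLL3 ranged from 2.17 to 8.55 in the set with H522, H661, KLE and H716, and from 0 to 1.20 in the other set apart from H146; the part of the sets in this was not tested.

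DLL1 (ENSG00000198719, chromosome 6), an activating ligand, was at 6.39 FPKM in H146 and at 0.0163 in H522, 0.133 in H661, 0.295 in KLE, 0.181 in H716, 0.0247 in 1321N1, 0.0368 in HEC59 and 0.0426 in COV318. H146 was the only line above 0.3 FPKM. FAM120B overlaps DLL1 on the opposite strand and was at 10.1 to 25.8 FPKM in all lines, highest in H146, and the sources used here do not say whether reads were assigned by strand.

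DLL4 (ENSG00000128917, chromosome 15), an activating ligand known from endothelium, was at 0.0838 FPKM in H522, 0.218 in H661, 0.199 in KLE, 1.71 in H716, 0.114 in HEC59, 0.101 in COV318 and 0.953 in H146, and it was listed at 0 in 1321N1. H716 and H146 were the 2 higher lines. Of 5 endothelial markers, PECAM1 was at 0 in all lines, and TEK was at 44.7 in H522 and 3.46 in KLE. CDH5 was highest in HEC59 at 2.53, KDR was at 1.45 in KLE and 1.14 in COV318, and VWF was at most 0.246. DLL4 was low in H522, KLE, HEC59 and COV318.

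Ligand sums varied less than receptor sums. They were 12.9 FPKM in H522, 16.5 in H661, 26.6 in KLE, 21.8 in H716, 8.26 in 1321N1, 13.8 in HEC59, 44.2 in COV318 and 21.1 in H146. JAG1 made up 55.3% to 96.3% of the sum in 6 lines, but 13.6% in H716 and 15.7% in H146. JAG2 led in H716 with 46.4% of the ligand sum, and DLL3 led in H146 with 37.7%, followed there by DLL1 with 30.2%. DLL3 also made up 30.4% to 32.1% in H661, KLE and H716.

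HES1 (ENSG00000114315, chromosome 3) encodes a basic helix-loop-helix repressor and is the best-known direct Notch target. Its promoter is printed because RBPJ, the DNA-binding partner of Notch, is known to act there through sites whose core letters are TGGGAA. HES5 and HEYL stand beside it as the other HES and HEY genes examined whose window holds these letters 2 times, so they were chosen for that count. The windows are the 250 bases before the start of transcription from RefSeq on GRCh38.p14, 5′ to 3′ on the strand of the gene, with the letters TGGGAA, or TTCCCA where they lie on the other strand, in capitals. HES1 lies at chr3:194135898-194136147 on the plus strand, HES5 at chr1:2530264-2530513 on the minus strand and HEYL at chr1:39639644-39639893 on the minus strand.
HES1: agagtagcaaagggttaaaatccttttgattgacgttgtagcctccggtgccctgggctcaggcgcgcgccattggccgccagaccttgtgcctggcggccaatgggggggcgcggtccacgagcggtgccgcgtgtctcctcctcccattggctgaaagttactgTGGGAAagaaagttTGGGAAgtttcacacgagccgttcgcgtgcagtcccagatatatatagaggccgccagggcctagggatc
HES5: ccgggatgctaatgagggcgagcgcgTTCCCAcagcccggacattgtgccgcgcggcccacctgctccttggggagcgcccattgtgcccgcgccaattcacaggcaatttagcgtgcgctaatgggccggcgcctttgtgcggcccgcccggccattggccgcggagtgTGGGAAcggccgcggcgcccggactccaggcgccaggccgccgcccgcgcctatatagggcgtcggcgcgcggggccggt
HEYL: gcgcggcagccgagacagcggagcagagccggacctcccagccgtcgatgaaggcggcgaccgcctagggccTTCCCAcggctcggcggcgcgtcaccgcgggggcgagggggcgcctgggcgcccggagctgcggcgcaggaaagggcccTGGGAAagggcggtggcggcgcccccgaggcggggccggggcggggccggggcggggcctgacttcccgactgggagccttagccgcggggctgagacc
In HES1 the letters begin 84 and 70 bases before the start, both on the gene's own strand. The paired RBPJ sites known from this promoter lie head to head on opposite strands, so these runs on 1 strand do not together make that pair. Only the exact letters were searched for and marked. A run in capitals may thus still be part of that pair, with a partner of other letters left unmarked. HES5 holds them at 80 bases and, on the other strand, at 224, and HEYL at 99 bases and, on the other strand, at 178. Of 35116 promoter windows of this length, 20.8% hold TGGGAA on either strand at least once and 2.90% hold it 2 times or more. Among the other target genes examined, HES4 and HEY2 hold the letters 1 time, and HES2, HES6, HES7, NRARP and REST hold none. The promoters of NOTCH1, NOTCH2, NOTCH3, DLL4, JAG1 and JAG2 hold none either, and letters alone do not show a bound site. Those of HEY1, DLL1 and DLL3 were not examined.

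HES1 was at 6.79 FPKM in H522, 3.22 in H661, 4.44 in KLE, 7.70 in H716, 5.06 in 1321N1, 6.35 in HEC59, 44.6 in COV318 and 0.122 in H146. Apart from COV318 and H146, the lines lay within 3.22 to 7.70. The highest line exceeded the lowest 366-fold. COV318 also had the highest JAG1 and NOTCH3, and H146 the lowest NOTCH1 and NOTCH2. Not all lines paired this way. H716, next to highest for HES1, had the lowest JAG1 and NOTCH3. H661, with the highest NOTCH2, was next to lowest for HES1. The part of receptor and ligand levels in HES1 was not tested.

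HEY1 (ENSG00000164683, chromosome 8), a related repressor that is also a Notch target, had another order. It was at 1.53 FPKM in H522, 33.9 in H661, 2.99 in KLE, 0.740 in H716, 1.24 in 1321N1, 0.386 in HEC59, 0.549 in COV318 and 3.25 in H146. H661 stood far above all lines, and H146, with almost no HES1, was the next. The highest line exceeded the lowest 88.0-fold, and COV318, highest for HES1, was next to lowest for HEY1.

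HES5 reached 0.267 FPKM in H661 and was at 0 in every other line, and HEYL was highest in H522 and H661 at 2.63 and 2.51. HEY2 was highest in HEC59 at 15.2. HES6, a HES family member that opposes HES1, was at 46.5 FPKM in H716 and 51.0 in H146 and at most 3.24 elsewhere. HES4 and NRARP, both target genes, were highest in COV318 like HES1, at 4.81 and 3.53 FPKM. The target genes thus peaked in different lines, and HES4 and NRARP shared the peak of HES1.

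**Figure D2:**
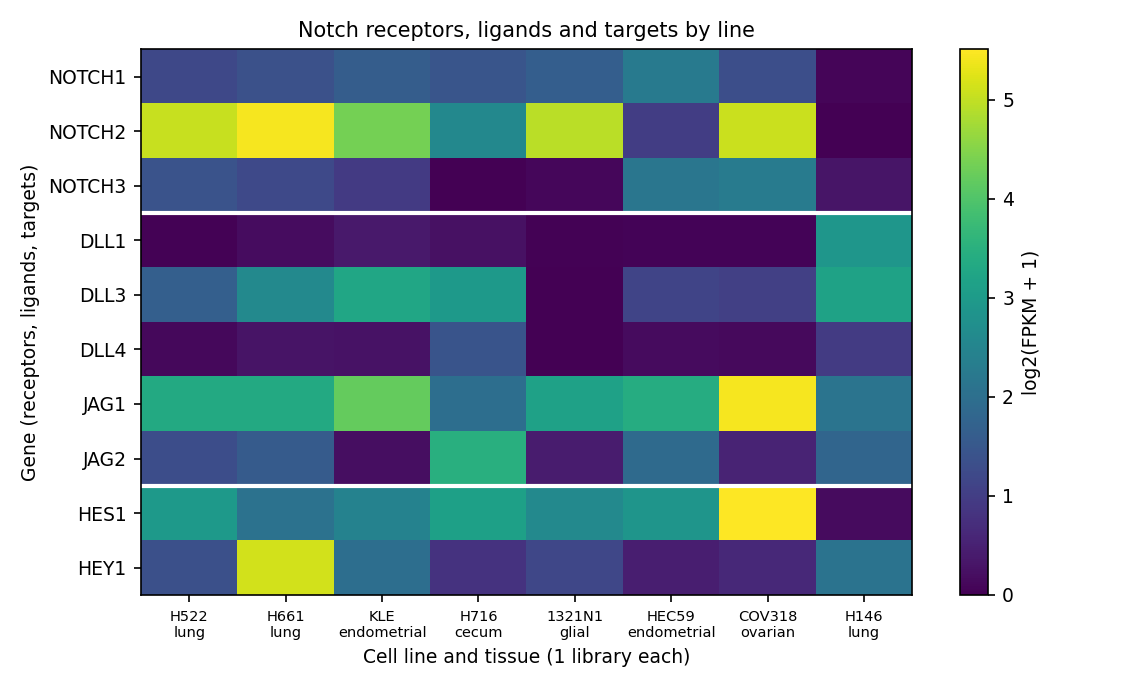
Heat map of log2(FPKM + 1) for the 10 genes (rows, grouped as receptors, ligands and targets) in the 8 cell lines (columns, 1 library each). NOTCH2 is bright in 5 lines and dark in H146, and the HES1 row peaks in COV318 while the HEY1 row peaks in H661.

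Which line was highest or lowest was counted for the 8 genes past the minimum and set against the 15650 genes that passed it. H146 was lowest in 3 of the 8 (NOTCH1, NOTCH2 and HES1), while it was lowest for 19.6% of all tested genes. H716 was lowest in 2 (NOTCH3 and JAG1), against 13.3%. COV318 was highest in 3 (NOTCH3, JAG1 and HES1), against 11.5% of all tested genes, and H661 was highest in 2 (NOTCH2 and HEY1), against 9.04%. Every other line was highest or lowest in at most 1 of the 8. These are descriptions of single libraries, and H146 was lowest for more genes overall than any other line.

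DLL3 was compared with the receptors and HES1 within each line on the log2(FPKM + 1) scale. The difference of DLL3 minus HES1 was 3.0 in H146, 0.81 in KLE, 0.52 in H661, -0.15 in H716, -1.30 in H522, -1.74 in HEC59, -2.60 in 1321N1 and -4.47 in COV318. DLL3 was thus above HES1 in 3 lines, H146, KLE and H661, and close to it in H716. As a ratio of FPKM, DLL3 over HES1 was 65.5 in H146 and 0.0237 in COV318.

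DLL3 minus the mean of the 3 receptors was 3.04 in H146, 1.63 in H716, 0.95 in KLE, -0.08 in H661, -0.68 in HEC59, -0.89 in H522, -1.85 in COV318 and -2.23 in 1321N1. DLL3 was above the receptor mean in 3 lines, H146, H716 and KLE. Without NOTCH2, whose values are the less certain ones, it was above the mean of NOTCH1 and NOTCH3 in 5 lines, at 2.97 in H146, 2.24 in H716, 1.98 in KLE, 1.30 in H661 and 0.36 in H522. In 1321N1, HEC59 and COV318 it was below by either mean.

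Receptor by receptor, DLL3 exceeded NOTCH1 in 5 lines, NOTCH3 in 5 and NOTCH2 in 3. The excess over NOTCH2 was 3.17 in H146, 0.41 in H716 and 0.13 in HEC59. H146 and KLE alone had DLL3 above both HES1 and the mean of the 3 receptors, joined by H661 where NOTCH2 was left out or the pseudocount was 0.1. H146 had under 0.3 FPKM of each of these 3 receptors and of HES1, with NOTCH4, not compared here, at 0.951. KLE, in contrast, kept NOTCH2 at 19.7 and HES1 at 4.44 FPKM and had the highest listed DLL3.

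**Figure D3:**
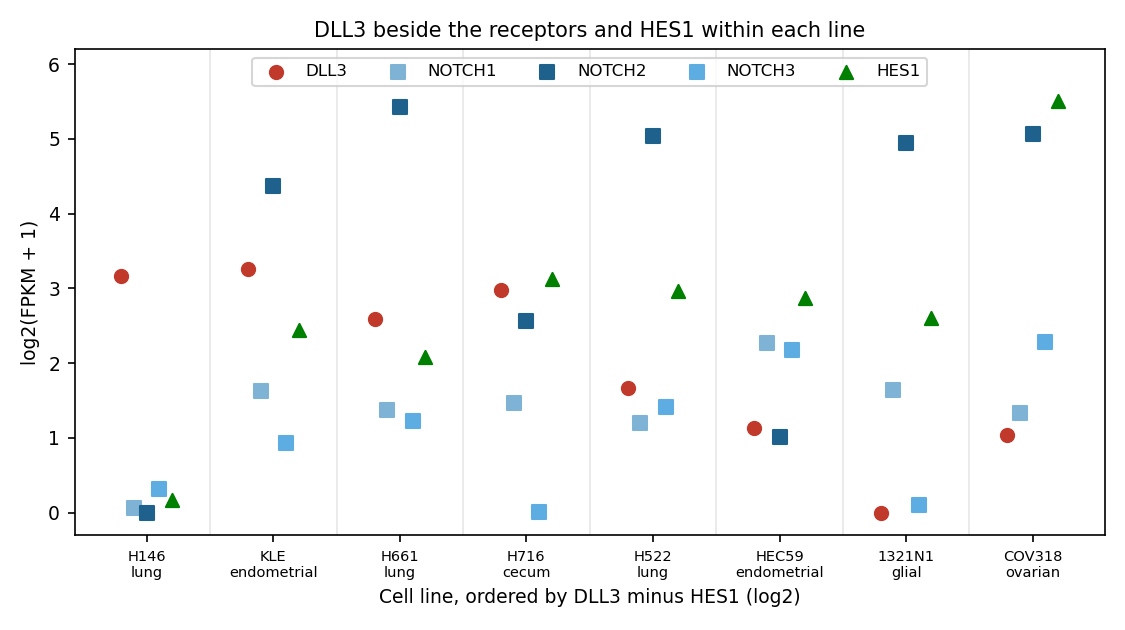
DLL3 (circles), the 3 receptors (squares) and HES1 (triangles) in each cell line as log2(FPKM + 1), with lines ordered by DLL3 minus HES1 and 1 library per line. DLL3 stands above every square and the triangle in H146 and lies at 0 in 1321N1, and HES1 is the top symbol in COV318.

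Tissues were compared with limma on log2(FPKM + 1) over 15650 genes, with Benjamini-Hochberg adjustment over all of them. None of the 8 tested genes was called at an adjusted p of 0.05 in lung lines against the other 5, where 0.0256% of all tested genes were called. At an unadjusted p under 0.05 there was 1 of the 8, HEY1, against 5.94% of all tested genes. None of the 8 had groups without overlap, against 4.3% of all tested genes.

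HEY1 averaged 2.85 ± 2.01 in the lung lines (SD, n = 3) and 1.01 ± 0.61 in the others (SD, n = 5), on the log2 scale. The difference was 1.84 (SE 0.799, limma adjusted p = 0.821), and without H661 it was 0.70. HES1 averaged 1.73 ± 1.43 in lung lines and 3.31 ± 1.26 in the others, a difference of -1.58 (SE 0.827, limma adjusted p = 0.855) that was -0.79 without H146 and -1.03 without COV318. Leaving out 1 such line moved each difference by more than 1.5 times.

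DLL3 averaged 2.47 ± 0.76 in lung lines and 1.68 ± 1.39 in the others (SD, n = 3 and 5), a difference of 0.79 (SE 0.776, limma adjusted p = 0.923). It was 0.37 without 1321N1, 0.45 without H146, 1.20 without H522 and 0.48 with a term for the 2 sets of lines. NOTCH1 differed by -0.79 (SE 0.427, limma adjusted p = 0.857), and by -0.38 without H146, the low lung line. The 4 remaining genes differed by -0.71 for JAG1, -0.11 for NOTCH3, -0.10 for NOTCH2 and 0.26 for JAG2, and JAG1 by -0.26 without COV318, -0.30 without H146 and -1.12 without H716. The median difference over the 8 genes was -0.11, beside -0.02 over all tested genes.

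For endometrial lines against the other 6, none of the 8 genes was called at an adjusted p of 0.05 by limma, where 0.00639% of all tested genes were called. None of the 8 had an unadjusted p under 0.05 (4.82% of all tested genes) and none had groups without overlap (6.96%). NOTCH1 differed by 0.77 (SE 0.499, limma adjusted p = 0.954) and by 0.45 without HEC59, and NOTCH2 by -1.15, which was 0.53 without HEC59. KLE and HEC59 themselves were far apart in NOTCH2, DLL3, JAG2 and HEY1, with KLE above HEC59 in 3 of these and below it in JAG2.

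Between lung and endometrial lines, again none of the 8 genes was called, with 0.00639% of all tested genes called and none of the 8 at an unadjusted p under 0.05, against 5.54%. NOTCH1 and JAG1 were lower in all 3 lung lines than in both endometrial lines, 2 of the 8, while 20.9% of all tested genes had groups without overlap and 9.27% had them lower in lung. For JAG1 the nearest lines were H661 at 9.14 FPKM and HEC59 at 9.67, single libraries whose order cannot be settled. NOTCH1 averaged 0.88 ± 0.71 in lung and 1.95 ± 0.45 in endometrial lines, a difference of -1.07 (SE 0.590, limma adjusted p = 0.909) that was -0.66 without H146. JAG1 averaged 2.93 ± 0.71 and 3.81 ± 0.56, a difference of -0.88 (SE 0.602, limma adjusted p = 0.917) that was -0.47 without H146 and -0.48 without KLE. DLL3 differed by 0.28 (SE 0.820, limma adjusted p = 0.977), less than its spread within either tissue.

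**Figure D4:**
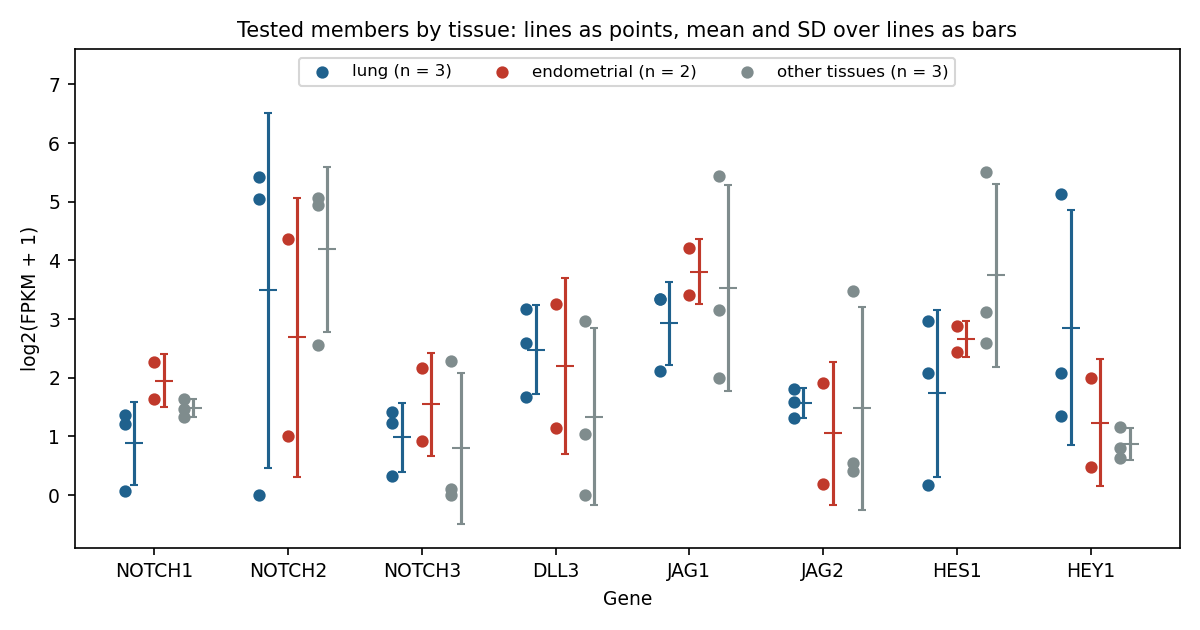
The 8 tested genes as log2(FPKM + 1) in lung, endometrial and other lines, with each line as a point and the mean and SD over lines as bars. The points of the groups overlap for most genes, and lung lies wholly under endometrial for NOTCH1 and, by a narrow gap, for JAG1.

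The wider pathway was read from 9 lists, which held 85 genes, of which 84 were found and 67 passed the minimum. No gene of the 67 was called in any of the 3 comparisons, and 6, 2 and 4 had an unadjusted p under 0.05 in lung against others, endometrial against others and lung against endometrial, beside 5.94%, 4.82% and 5.54% of all tested genes. Groups without overlap were found in 2, 3 and 10 of the 67, or 2.99%, 4.48% and 14.9%, each a smaller share than the 4.3%, 6.96% and 20.9% of all tested genes. In lung against the others these were 2 genes, named after their values were seen: DLK2, a non-canonical ligand, had a difference of 2.79 (SE 0.548, limma adjusted p = 0.207) and ID1, an inhibitor of proneural factors, one of -2.16 (SE 0.529, limma adjusted p = 0.435).

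The machinery that cuts the receptor was present in all lines. Of the 8 ADAM and gamma-secretase genes, 7 were at 1 FPKM or more in every line. ADAM10, which makes the first cut, ranged from 23.8 FPKM in H146 to 166 in KLE. APH1B, a subunit of gamma-secretase, ran from 0.113 in HEC59 to 9.86 in H146.

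The nuclear partners were also broadly present, with 12 of 15 genes at 1 FPKM or more in every line. RBPJ ranged from 18.8 to 66.6 FPKM. MAML2, a Mastermind coactivator, was at 30.6 FPKM in H522, 9.93 in H661, 23.5 in KLE, 0.298 in H716, 9.11 in 1321N1, 19.1 in HEC59, 16.7 in COV318 and 0.0385 in H146. H716 and H146, the lines with the lowest JAG1, had the lowest MAML2, and MAML3, a related coactivator, was at 18.7 and 10.9 FPKM in them. The corepressors TLE4 and TLE1 ranged from 0.105 in H661 to 150 in KLE and from 1.35 in H146 to 66.6 in HEC59.

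Among receptor-modifying genes, MFNG, a Fringe glycosyltransferase that alters ligand preference, was at 34.4 FPKM in H716 and at most 0.172 elsewhere. LFNG, another Fringe, was highest in 1321N1 at 5.68 FPKM and in H716 at 3.50. POGLUT1, which adds O-glucose to receptors, ranged from 1.94 in HEC59 to 14.2 in 1321N1. H716 thus had the highest MFNG beside the highest JAG2 and DLL4.

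MFAP5, a matrix protein counted among the non-canonical ligands, ranged widely, from 0.101 FPKM in H716 and 0.204 in H146 to 311 in H522 and 376 in KLE. DLK1, a non-canonical ligand that dampens Notch and marks some neuroendocrine tumours, was at 29.8 FPKM in H146, 2.93 in H661 and at most 0.0321 elsewhere. DNER, a neuronal ligand, was at 24.1 FPKM in H146 and 20.2 in 1321N1 and at most 0.414 elsewhere. H146 thus held DLL1, DLK1 and DNER together with DLL3.

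The Deltex genes, which regulate receptor turnover, each peaked in another line. DTX1, also a Notch target, was at 5.0 FPKM in H146 and at most 0.770 elsewhere. DTX2 ranged from 3.07 in KLE to 36.2 in 1321N1, and DTX4 from 0 in H716 to 9.37 in KLE.

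Proneural and neuroendocrine factors were read beside HES1. INSM1, a neuroendocrine zinc finger factor, was at 81.3 FPKM in H146, 5.27 in H716 and at most 0.236 elsewhere, and ATOH1, a factor of intestinal secretory cells, was at 28.0 in H716 and at 0 in all other lines. H146, with INSM1 highest, was the line with HES1 lowest, whereas H716 had ATOH1 together with the second-ranked HES1 of 7.70.

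REST, a repressor of neuronal genes that Notch is known to raise in small cell lung cancer, was at 36.8 FPKM in H522, 39.5 in H661, 53.2 in KLE, 22.9 in H716, 27.1 in 1321N1, 30.8 in HEC59, 53.6 in COV318 and 0.0375 in H146. The other lines were at 22.9 or more, and H146 was nearly without it. SOX9, a progenitor factor, was highest in 1321N1 at 27.0 FPKM and next in H146 at 11.6.

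**Figure D5:**
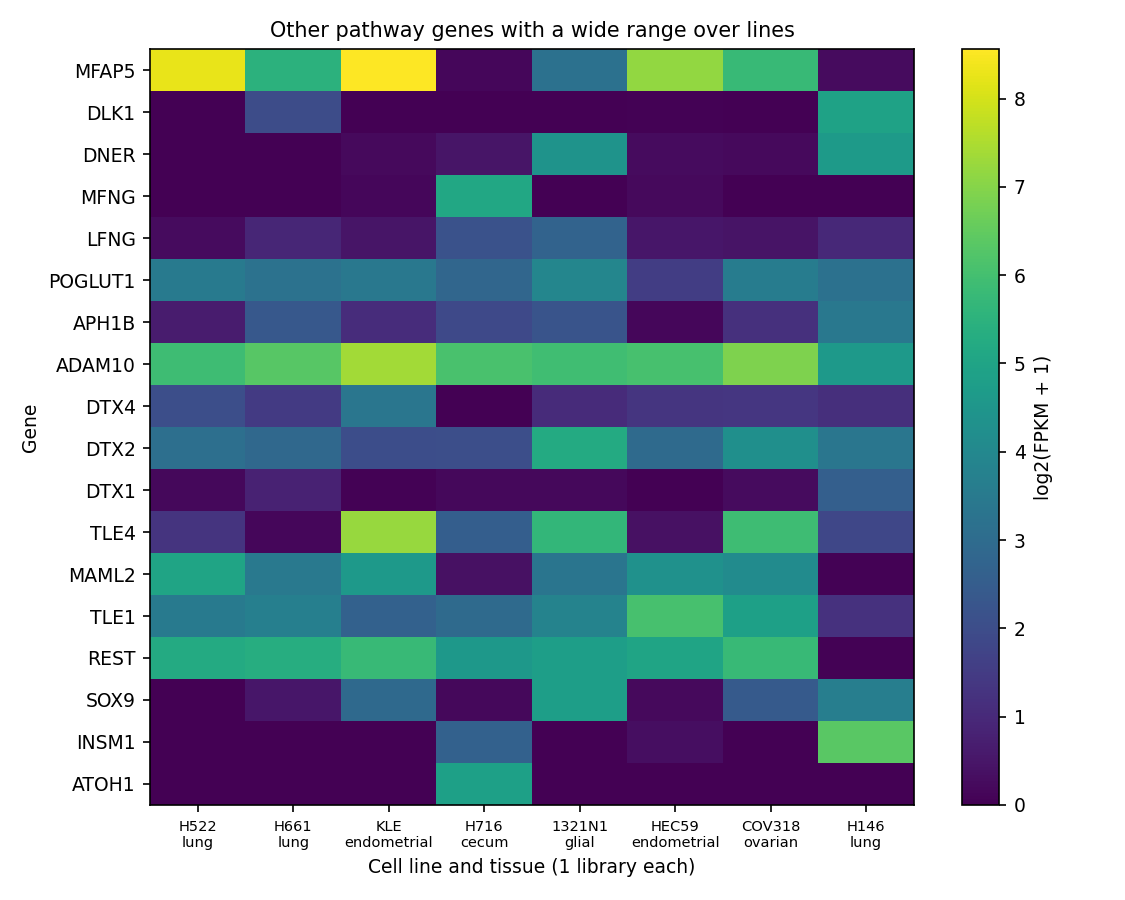
Heat map of log2(FPKM + 1) for other pathway genes with a wide range in their list, in the 8 cell lines (1 library each). The H146 column is bright for INSM1, DLK1 and DNER and dark for REST and MAML2, and MFNG and ATOH1 are bright in H716.

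Genes with the most similar pattern to each member were found by Pearson's r over the 8 lines among 7445 tested genes with a range of at least 2 on the log2 scale. NOTCH2 was most like its copy NOTCH2NL (r = 0.982), then CDC20 (0.971) and CALU (0.959). The split of reads between NOTCH2 and NOTCH2NL is uncertain, and its part in their r was not tested. DLL3 was most like TDG (0.938), LRBA (0.930) and GLB1L2 (0.927). HES1 was most like TRAPPC2L (0.965), MITD1 and ARHGAP42 (both 0.954), and HEY1 was most like FAM189A2 (0.979), FA2H and C11orf72 (both 0.937).

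For the other tested genes the leading neighbours were RPL7A for NOTCH1 (0.961), AC004980.9 for NOTCH3 (0.978), FAM132B for JAG1 (0.974) and CMTM8 for JAG2 (0.933). IDH1 (0.945) was also among the most similar for NOTCH1, AP1S3 (0.964) and AL358813.2 (0.963) for NOTCH3, LRRC1 (0.951) and DUSP1 (0.947) for JAG1, and EEF1A2 (0.928) and ELF1 (0.923) for JAG2. No gene of the 9 pathway lists was among these neighbours. Each r is among the highest of 7445 genes over only 8 points, and both genes of a pair share their libraries, so these values describe likeness only.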

How the data were processed

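The authors deposited 1 table of FPKM values per line, with Ensembl identifiers and symbols, per the file headers. Tools included CASAVA 1.4, TopHat2 2.0.8 and SAMtools 1.0, with build GRCh37, per the submitters' processing notes. The sources used here do not give the program that estimated FPKM, its annotation or its use of strand. The deposited FPKM hold no read totals, so depth is unknown beyond the relative depths, and no counting interval is given.

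All tests used log2(FPKM + 1), a scale on which differences of low genes come out too small. The 15650 genes that reached 1 FPKM in 2 or more lines entered limma 3.58.1 (R 4.3.3, eBayes with trend), called at a Benjamini-Hochberg adjusted p of 0.05; p-values measure the spread between different tumours' lines. Lung against endometrial lines used 1 mean per tissue, with the spread from those 5 lines. The code was tested on simulated data with a smaller spread than these lines have. That checks whether set differences are recovered, and not how readily genes are called in these data. Alternatives were pseudocounts of 0.1 and 5, other filters and scalings, a term for the 2 sets of lines, and leaving out each line. Members and lists were chosen with earlier results of these data known. Genes outside the 10 were NOTCH4 and those called, among the 3 widest in range of a list or the 3 most alike to a member; DLK2, ID1, NOTCH2NL, MAML3, RBPJ, HES4, HES5, HES6, NRARP, HEY2, HEYL, the overlapping genes and the markers were named after their values were seen. NUMB was not analysed here, and some genes that the rule names are not reported here. Overlaps of genes come from GENCODE v29 and promoters from RefSeq (GRCh38.p14), neither joined to the files by coordinates.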

Additional observations from a re-analysis of the deposited data

Results flagged for a closer look

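Values are the gap between the extreme line and its nearest neighbour, as a share of the whole range on the log2(FPKM + 1) scale. Of 30 groups examined, 7 gave a line that stood apart. For a single group of normally spread values chance gives about 1 in 20. The groups take each gene over all 8 lines and over subsets of 6 and 5 of them, so they overlap. The same line was flagged again in a subset for DLL1 and for HEY1, and DLL1 and DLL4 were under the minimum for testing. The 7 of 30 can therefore not be set against that rate. DLL1 was high in H146 by 0.878 of the range over all 8 lines and 0.924 over the 6 lines that are not endometrial. NOTCH1 was low in H146 by 0.725 over those 6 lines. HEY1 was high in H661 by 0.652 over all 8 lines and 0.676 over the 6. HES1 was high in COV318 by 0.779, and DLL4 was high in H716 by 0.818, both over the 5 lines that are not lung.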

How the results depend on the processing

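No member was called in any of the 3 comparisons under any of the 16 alternatives run for each, and the smallest adjusted p over them was 0.634 in lung against others, 0.899 in endometrial against others and 0.648 in lung against endometrial. The members' differences kept their direction in 113, 113 and 118 of 124 values. In lung against others, NOTCH3 was 0.32 at a pseudocount of 0.1, and NOTCH2 was 0.19 and JAG2 -0.017 at a pseudocount of 5. In endometrial against others, HES1 was 0.24 at a pseudocount of 0.1, 0.071 with upper-quartile scaling and 0.020 with quantile normalization. DLL3 minus the receptor mean in H661 was 0.14 at a pseudocount of 0.1, and a receptor mean without NOTCH2, added after seeing the data, put DLL3 above it in 5 lines. Pseudocounts of 0.1 and 5 gave 1.55 and 0.31 for DLL3 and -1.67 and -0.28 for NOTCH1 in lung against others. Leaving out 1 line at a time gave, in lung against others, -1.07 to 1.65 for NOTCH2 (highest without H146), -0.39 to 0.22 for NOTCH3, -0.018 to 0.80 for JAG2, 0.37 to 1.20 for DLL3, -1.03 to -0.38 for NOTCH1, -1.12 to -0.26 for JAG1, -2.19 to -0.79 for HES1 and 0.70 to 2.60 for HEY1. In endometrial against others it gave -2.83 to 0.53 for NOTCH2, -0.77 to 1.35 for DLL3, -1.33 to 0.39 for JAG2, -0.59 to 0.48 for HES1, -1.39 to 0.14 for HEY1, 0.45 to 1.09 for NOTCH1, 0.038 to 1.28 for NOTCH3 and 0.18 to 1.02 for JAG1. In lung against endometrial it gave -0.88 to 2.55 for NOTCH2, -0.78 to 1.34 for DLL3, -0.35 to 1.37 for JAG2, -1.19 to 0.056 for NOTCH3, -1.39 to -0.66 for NOTCH1, -1.27 to -0.47 for JAG1, -1.54 to -0.14 for HES1 and 0.48 to 2.38 for HEY1. The cause was not tested. Over all genes, calls in lung against others were 4, and 11 and 2 at pseudocounts of 0.1 and 5, 1 without the filter, 2 with a term for the 2 sets and 1 to 16 leaving out a line. In endometrial against others they were 1, 4 at a pseudocount of 5, 20 without the filter and 1 to 30 leaving out a line, and in lung against endometrial 1, 0 without the filter and 0 to 1 leaving out a line. No paired analysis was possible because replicate numbers follow accession order and pair no lines.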
